A study of Sus scrofa with 30 samples.

Results

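miR-132 and miR-212 were followed through the endometrium of pigs in early pregnancy and over the estrous cycle. Of the annotated small RNA sequences that the study listed, 3 carry the root mir-132 or mir-212 in their names, beside 870 others. These are 1 form of miR-132 of 22 nt and 2 forms of miR-212, of 21 and 22 nt. The number of reads of each was taken by exact match in all 30 libraries.

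The animals were Hampshire x Duroc crossbred gilts, aged 7 to 8 months, of 1 commercial herd, and endometrium was taken after slaughter on day (D) 12, 16 or 20. The pregnant (P) groups were inseminated around the third estrus and held 5 animals on PD12, 5 on PD16 and 6 on PD20. The cyclic (C) groups held 4 animals on CD12, 5 on CD16 and 5 on CD20. Each library was made from 1 animal with the NEXTflex kit for small RNA, and the labels give no other treatment. Conceptuses were flushed out of the uterus up to D16 of pregnancy. On PD20 the endometrium came from implantation sites, once trophoblasts and embryos had been dissected away. For no other group does the paper name such sites. Site and status thus cannot be told apart in PD20 vs. CD20, nor site and day between PD20 and the earlier pregnant groups. A library held between 2029729 and 6402731 deposited reads, with a median of 3111079. Levels are given in CPM, reads scaled to library size, and at these depths 1 read stands for 0.156 to 0.493 CPM. In all libraries together all reads of both miRNAs made up 0.00167% of the deposited reads. The tissue is a mixture of cells, so fewer cells of a type and less RNA per cell cannot be told apart.

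miR-132 and miR-212 are processed from neighbouring hairpins of 1 locus. Their transcription is known to respond to cAMP and the transcription factor CREB, which neurons use in activity-dependent growth of dendrites and which ovarian granulosa cells use after the surge of luteinizing hormone. A miRNA recognizes its targets mainly by the seed, bases 2 to 8 from its 5′ end, so miRNAs with 1 seed can share targets. In RefSeq (Sscrofa11.1) MIR132 and MIR212 are next to each other with 0 other entries between them, and the entries on either side are OVCA2 and HIC1.

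The listed sequences are shown because their shared seed, in capitals, is what joins the members, while the bases after it tell them apart.
miR-132, 22 nt: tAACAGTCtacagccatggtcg
miR-212, 21 nt: tAACAGTCtccagtcacggcc
miR-212, 22 nt: tAACAGTCtccagtcacggcca
None of the 870 other listed sequences carried the seed AACAGTC. miR-132 and the longer form of miR-212 were identical at 17 of 22 positions (77.3%), counted from 1 at the 5′ end of miR-132. They share their first 9 bases and differ by A10C, C14T, T17C, T20C and G22A, with the base of miR-132 first. The 2 forms of miR-212 differ only by the last base of the longer one. In the deposited reads as a whole, 1695 reads had this seed at bases 2 to 8, and 1629 of them (96.1%) began with the first 17 bases of miR-132 or miR-212.

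A sequence entered the list of the study when it had at least 10 reads in most libraries of at least 1 group, which was applied here as 4 libraries, or 3 of the 4 on CD12. The members were thus chosen by their reads. miR-132 passed in CD20 alone, the 21 nt form of miR-212 in PD16, PD20 and CD20, and the 22 nt form in PD20 and CD20. For this reason the listed sequences are given one by one as a description, with no test. Just inside the threshold, miR-132 reached 10 reads in 4 libraries of CD20. Just outside were an unlisted form of miR-212 with 75 reads in all and an unlisted form of miR-132 with 72, which reached 10 reads in 1 and 0 libraries of CD20.

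The shorter miR-212 had 29, 54, 30, 18 and 39 reads in the 5 libraries of CD20. On CD12 it had 3, 6, 3 and 1 reads, and on CD16 12, 7, 0, 5 and 1. Every library of CD20 was above every library of both earlier days of the cycle, as was so for 2.86% (CD12) and 3.44% (CD16) of the listed sequences. As CD20 was among the groups through which this form entered the list, nothing is read from that. In pregnancy the same form had 8, 10, 19, 2 and 9 reads on PD12, 16, 18, 2, 23 and 21 on PD16, and 23, 7, 11, 21, 21 and 23 on PD20. The pregnant groups overlapped with each other. Scaled to the reads of the list, its mean was 14.5 ± 4.18 CPM (SD, n = 5) on CD20 and 1.26 ± 0.570 CPM (n = 4) on CD12.

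The longer miR-212 was read less often, with 13, 43, 15, 5 and 16 reads on CD20 and 1, 1, 1 and 0 on CD12. Its CD16 libraries held 13, 4, 4, 1 and 0 reads, so CD16 and CD20 overlapped. PD12 held 9, 10, 12, 7 and 8 reads, PD16 3, 0, 1, 0 and 14, and PD20 6, 16, 10, 7, 10 and 10. PD16 was thus the pregnant group in which this form was nearly missing from 4 of 5 animals, with replicate 5 as the exception. Means ran from 0.321 ± 0.247 CPM (SD, n = 4) on CD12 to 7.49 ± 4.69 CPM (n = 5) on CD20. With only 3 reads on CD12 in all, the pooled ratio of CD20 to CD12 was 36.9, with an exact 95% interval of 12.2 to 182 that covers counting error only.

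miR-132 had 8, 57, 24, 21 and 12 reads on CD20, 24, 2, 0, 8 and 6 on CD16, and 2, 0, 3 and 1 on CD12. Replicates 1 and 4 of CD16 thus lay within the range of CD20, and 3 of 5 libraries of CD20 were above all of CD16. PD12 held 19, 2, 24, 5 and 6 reads, PD16 12, 12, 8, 0 and 5, and PD20 8, 12, 8, 16, 11 and 6. Its mean was 10.3 ± 6.57 CPM (SD, n = 5) on CD20, 0.736 ± 0.649 CPM (n = 4) on CD12 and 4.27 ± 4.31, 3.63 ± 2.63 and 4.09 ± 1.85 CPM on PD12, PD16 and PD20. Replicate 3 of PD12, with 24 reads, raised the mean of its group, whose median was 1.92 CPM.

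**Figure D1:**
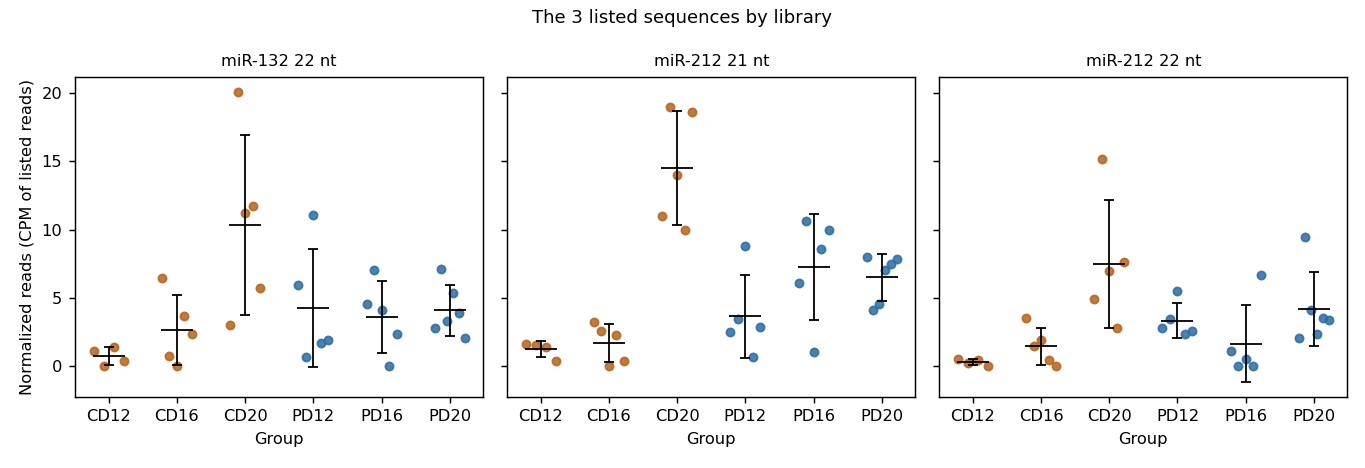
Normalized reads of the 3 listed sequences in CPM of the reads of the list (y axis) by group (x axis), with 1 point per library, the group mean as a horizontal bar and ± 1 SD as the error bar. Cyclic groups are brown and pregnant groups blue. The mean of CD20 is the highest for each sequence, at 10.3, 14.5 and 7.49 CPM, and that of CD12 the lowest, while single libraries of the groups overlap. Each sequence entered the list through CD20, alone or among other groups, so nothing is read from this order.

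From CD12 to CD20 the log2FC was 3.46 ± 0.67 (SE) for the shorter miR-212, 4.42 ± 0.91 for the longer and 3.87 ± 0.94 for miR-132. CD16 lay between, at 0.57 ± 0.69, 2.31 ± 0.96 and 2.12 ± 0.96 above CD12. On D12 pregnancy exceeded the cycle by 1.45 ± 0.72, 3.28 ± 0.76 and 2.60 ± 0.98 on the log2 scale. On D20 the direction was opposite, with PD20 vs. CD20 at -1.12 ± 0.37, -0.89 ± 0.49 and -1.34 ± 0.48. Each of these forms entered the list through CD20, alone or among other groups. Nothing is therefore read from differences that involve CD20, and the SEs are given as description only.

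The listed sequences are not all that was read from this locus. When every deposited read that began with the same 17 bases was summed, irrespective of its 3′ end, miR-132 had 510 reads of 24 distinct forms and miR-212 1119 reads of 52. The listed forms made up 63.1% of the miR-132 reads (95% Wilson interval 58.9 to 67.2, counting error only) and 60.9% of the miR-212 reads (58.1 to 63.8). The remaining reads differed in length and in the last bases. None of the most frequent unlisted forms passed the abundance rule in any group. They are shown because their last bases differ from the listed ones, with the bases after the first 17 in capitals.
miR-212, 22 nt, 75 reads: taacagtctccagtcacGGCCT
miR-132, 21 nt, 72 reads: taacagtctacagccatGGTC
miR-212, 23 nt, 66 reads: taacagtctccagtcacGGCCAT
miR-212, 20 nt, 51 reads: taacagtctccagtcacGGC
miR-132, 23 nt, 51 reads: taacagtctacagccatGGTCGT
Each of these 5 forms had its largest number of reads on CD20, apart from the 21 nt form of miR-132 with 18 reads on CD20 and 19 on PD20. The 5′ end varied less. At the start shown lay 94.7% of the miR-132 reads of any nearby start (92.4 to 96.3) and 98.3% of those of miR-212 (97.4 to 98.9). Only 27 reads of miR-132 and 10 of miR-212 began 1 base later, which would move the seed.

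Read length was then compared. Reads over 22 nt were 16.9% of miR-132 and 23.3% of miR-212. On CD20, 22 nt reads were 68.3% of 189 miR-132 reads, against 77.6% of 76 on PD12 and 61.0% of 105 on PD20. They were 57.5% of 73 on PD16, 70.0% of 60 on CD16 and 100% of 7 on CD12. For miR-212, reads of 21 nt were 39.0% of 469 on CD20, 36.8% of 144 on PD12 and 46.3% of 242 on PD20. The other groups had 53.5% of 155 (PD16), 31.3% of 83 (CD16) and 50.0% of 26 (CD12). These shares are pooled over the libraries of a group and carry no test.

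**Figure D2:**
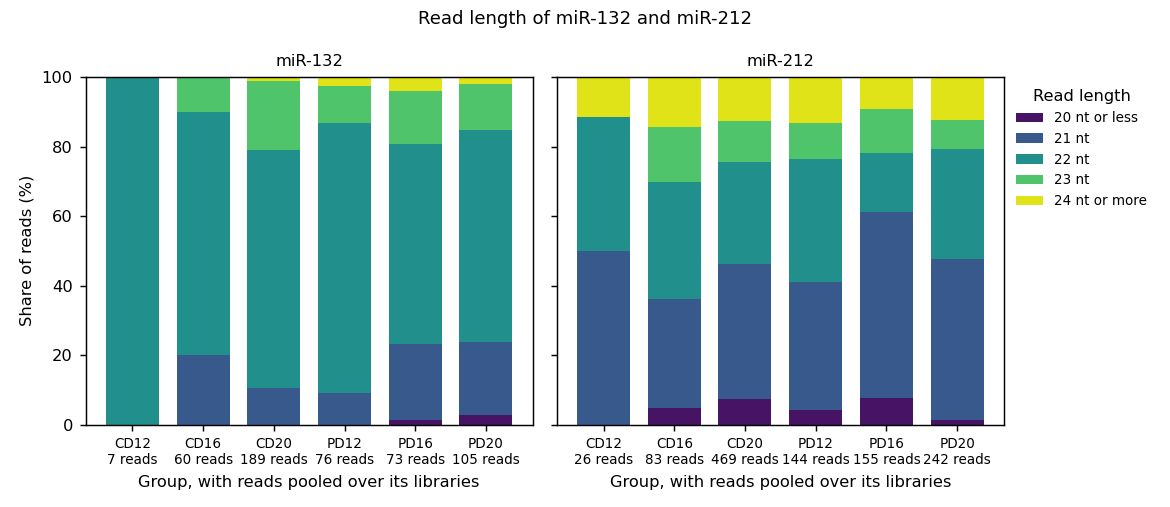
Share of reads by length (y axis, %) for miR-132 and miR-212 in each group (x axis), pooled over its libraries, with the number of reads under each bar. miR-132 was mostly 22 nt in every group (68.3% on CD20) and miR-212 was split mainly between 21 and 22 nt (39.0% and 29.2% on CD20), while the bars of CD12 rest on 7 and 26 reads.

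Over all reads, miR-212 was lowest in CD12, with 5, 14, 4 and 3 reads or 2.01, 2.42, 1.52 and 0.831 CPM of the deposited reads. CD16 held 44, 19, 8, 9 and 3 reads (8.85, 5.36, 3.36, 3.18 and 0.868 CPM), and CD20 held 70, 199, 74, 37 and 89 (20.3, 64.7, 30.4, 17.1 and 30.4 CPM). CD20 did not overlap with CD12 or with CD16, as was so in that direction for 1.89% and 1.67% of all tags, a tag being all reads with the same first 17 bases. These sums hold the listed reads, which entered through CD20, so nothing is read from that either. Pregnant libraries ranged from 4.27 to 10.3 CPM on PD12, from 4.38 to 23.5 on PD16 and from 10.8 to 17 on PD20. The order of means was CD12 (1.70 ± 0.684, SD), CD16 (4.32 ± 2.99), PD12 (8.13 ± 2.50), PD16 (11.4 ± 7.19), PD20 (12.8 ± 2.37) and CD20 (32.6 ± 18.9). Neighbours in this order overlapped, except PD20 and CD20, where the highest library of PD20 stayed just under the lowest of CD20 (17.1).

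miR-132 followed the same order. Its reads were 2, 0, 3 and 2 on CD12, 32, 8, 2, 11 and 7 on CD16, and 18, 73, 35, 35 and 28 on CD20. Mean levels were 0.63 ± 0.48 CPM (SD, n = 4) on CD12, 3.09 ± 2.16 (n = 5) on CD16 and 13.8 ± 7.01 (n = 5) on CD20. The pregnant groups lay between CD16 and CD20, at 4.45 ± 3.35 on PD12, 5.80 ± 3.79 on PD16 and 6.00 ± 3.95 (n = 6) on PD20. All neighbouring groups overlapped, also PD20 (2.54 to 12.7 CPM) and CD20 (5.21 to 23.7 CPM).

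**Figure D3:**
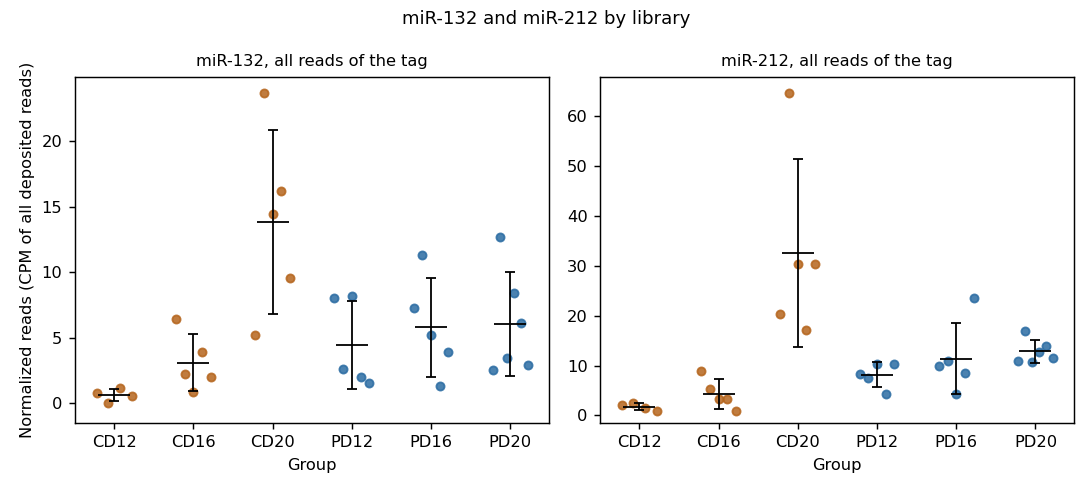
Normalized reads of miR-132 and miR-212 summed over all forms, in CPM of the deposited reads (y axis), by group (x axis), with 1 point per library, the mean as a horizontal bar and ± 1 SD as the error bar. Means of the cyclic groups (brown) ran from 1.70 CPM on CD12 to 32.6 on CD20 for miR-212, and those of the pregnant groups (blue) lay between 8.13 and 12.8. Replicate 2 of CD20 is the high point at 64.7.

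Whether the level differed between days of the cycle was fitted on the reads outside the list, of forms that did not pass its abundance rule. They are forms of the same miRNAs in the same animals, so the choice of members by their CD20 reads carries over to them, and the p-values below are not independent of that choice. For miR-212 these reads were 28, 102, 29, 14 and 34 on CD20 and 1, 7, 0 and 2 on CD12. For miR-132 they were 10, 16, 11, 14 and 16 on CD20 and 0, 0, 0 and 1 on CD12. CD20 thus lay above CD12 in every library for both, as was so for 1.8% of tags of such reads. Over D12, D16 and D20 both passed the threshold, with a log2FC from CD12 to CD20 of 4.49 for miR-212 and 5.52 for miR-132 (adjusted p = 0.0339 for both, joint quasi-likelihood F-test of edgeR over 3104 tags). They were 2 of 4 tags called, where 0.129% of all tags were called. The single contrast of CD20 vs. CD12 gave an adjusted p of 0.0411 for miR-212 (SE 0.82) and 0.0220 for miR-132 (SE 0.88), and called 0.0966% of tags. As miR-132 had 1 such read on CD12, its pooled ratio of 80.6 had an exact interval from 14 to 3230, which covers counting error only.

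**Figure D4:**
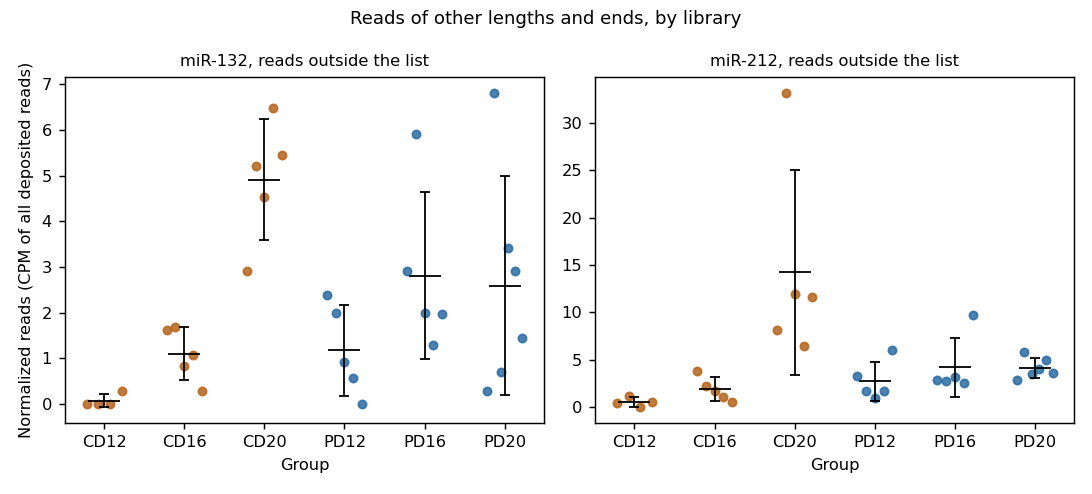
Normalized reads of miR-132 and miR-212 other than the 3 listed sequences, in CPM of the deposited reads (y axis), by group (x axis), with 1 point per library, the mean as a horizontal bar and ± 1 SD as the error bar. Cyclic groups are brown and pregnant groups blue. On CD20 the means were 4.91 and 14.3 CPM, and no library of CD12 exceeded 0.277 and 1.21 CPM.

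These calls rested on few animals. With each of the 14 cyclic libraries left out in turn, miR-212 outside the list was called in 6 fits and miR-132 in 5. The log2FC kept its direction, between 3.9 and 5.32 for miR-212 and between 5.08 and 6.98 for miR-132, and the adjusted p ranged from 0.0227 to 0.124 for both. miR-212 was no longer called without CD12 replicate 1 or 4, CD16 replicate 2, 3, 4 or 5, or CD20 replicate 2 or 5. miR-132 was no longer called without CD12 replicate 1, 2 or 4, CD16 replicate 2, 4 or 5, or CD20 replicate 2, 4 or 5. The highest p was reached without CD20 replicate 2. With the replicate number as a block neither was called (adjusted p = 0.0742 for miR-212 and 0.0993 for miR-132, 0 tags called).

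The same fit over all reads, which holds those that chose the members and therefore adds no separate evidence, gave 18.7-fold for miR-212 and 22.9-fold for miR-132 between CD12 and CD20. miR-212 was called (adjusted p = 0.0190, first by p of 3115 tags) and miR-132 was not (adjusted p = 0.0630), where 0.128% of tags were called. Without CD20 replicate 2 the log2FC of miR-212 was 3.79 and its adjusted p 0.117. It was also lost without CD12 replicate 4 (0.0850), CD16 replicate 4 (0.0551), CD20 replicate 3 (0.0509) and CD20 replicate 5 (0.0549). Between CD16 and CD20 the log2FC was 2.89 ± 0.59 (SE) for miR-212 and 2.12 ± 0.66 for miR-132, and neither passed the test (adjusted p = 0.133 and 0.391). In that contrast edgeR called 0 tags (0%) at the adjusted threshold, and 201 had an unadjusted p under 0.05.

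**Figure D5:**
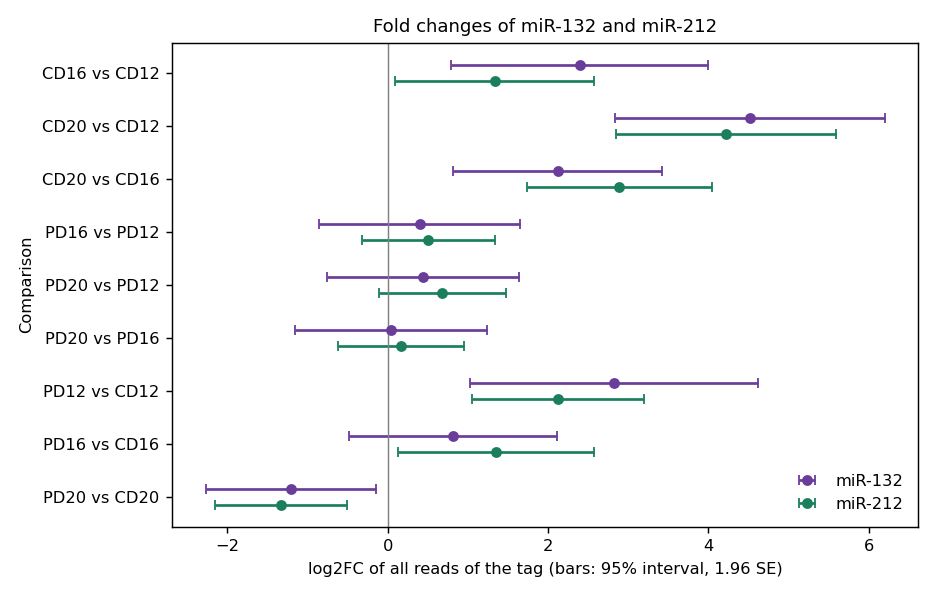
log2FC of all reads of miR-132 (purple) and miR-212 (green) in 9 comparisons of groups (y axis), with 95% intervals as bars (x axis, log2 scale). The values for CD20 vs. CD12 are 4.52 and 4.22, those between days of pregnancy are under 1, and those for PD20 vs. CD20 are -1.20 and -1.33.

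The other tags called over the cycle were miR-17-5p and 2 tags without a name in the list, all chosen here after their values were seen. miR-17-5p, of a cluster known to promote proliferation, had a log2FC of 2.07 (adjusted p = 0.0493). One unnamed tag, accttggctctagactg, had a log2FC of 5.32 (adjusted p = 0.0493). Hairpin sequences were not used here, so it cannot be counted as an RNA separate from these miRNAs. It had 6, 18, 10, 12 and 15 reads on CD20, 5, 2, 0, 1 and 2 on CD16, and 0, 0, 1 and 0 on CD12. PD12, PD16 and PD20 held 42, 26 and 43 of its reads. The other unnamed tag was lower on CD20 (log2FC -6.19), with 171 reads on CD12, of which 130 and 40 lay in 2 of 4 libraries.

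During pregnancy neither miRNA passed the test between days. PD20 vs. PD12 gave a log2FC of 0.68 ± 0.40 (SE) for miR-212 and 0.44 ± 0.61 for miR-132, with 95% intervals from -0.11 to 1.47 and from -0.76 to 1.64. PD16 vs. PD12 gave 0.51 ± 0.42 and 0.40 ± 0.64. The joint test of days gave an adjusted p of 0.813 and 0.987, with 0.578% of tags called, and for the reads outside the list 0.913 and 0.862. All 6 libraries of PD20 nonetheless lay above those of PD12 for miR-212, as held in that direction for 0.706% of tags. These reads include the listed forms, which entered through PD20 among other groups, and in the reads outside the list PD20 and PD12 overlapped.

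Pregnant and cyclic animals were then compared on each day, over all reads. These hold the listed reads that chose the members, through CD20 and, for miR-212, also PD16 and PD20, so the reads outside the list are given beside them, without being independent of that choice. On D12 both miRNAs were higher in pregnancy in these libraries, 4.36-fold for miR-212 (log2FC 2.12 ± 0.55, SE) and 7.06-fold for miR-132 (2.82 ± 0.91). No library of PD12 overlapped with CD12 for either, as was so in that direction for 1.35% of tags. Neither passed the test over all tags (adjusted p = 0.837 for both), nor did their reads outside the list, with a log2FC of 2.09 ± 0.84 for miR-212 (0.875) and 3.50 ± 1.28 for miR-132 (0.859). In those reads PD12 and CD12 overlapped for both, with 4 of 5 PD12 libraries above all of CD12. edgeR called 0 tags (0%) in this comparison, 162 had an unadjusted p under 0.05, and the likelihood ratio test called 4 and DESeq2 1. On D16 the log2FC was 1.35 ± 0.63 for miR-212 and 0.82 ± 0.66 for miR-132, and the groups overlapped. Neither passed the test there (adjusted p = 0.956 for both), with 0 tags called (0%) and 142 at an unadjusted p under 0.05. Outside the list the log2FC was 1.11 ± 0.63 for miR-212 and 1.26 ± 0.64 for miR-132 (adjusted p = 0.954 for both).

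On D20 the levels were lower in pregnancy in these libraries, at 0.398-fold of the cycle for miR-212 (log2FC -1.33 ± 0.42, SE) and 0.435-fold for miR-132 (-1.20 ± 0.54). All 6 libraries of PD20 lay below all 5 of CD20 for miR-212, which was so in that direction for 0.353% of tags, whereas those of miR-132 overlapped. Neither was called by the F-test (adjusted p = 0.25 and 0.436), which called 0.449% of tags, while DESeq2, which called 2.17%, called miR-212 (adjusted p = 0.0246). The reads outside the list had a log2FC of -1.86 ± 0.48 for miR-212 (adjusted p = 0.144) and -1.01 ± 0.65 for miR-132 (0.557), where 0.354% of such tags were called.

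Whether the difference between pregnancy and cycle itself changed with day was tested in 1 fit of all 30 libraries. From D12 to D20 it moved by -3.57 on the log2 scale for miR-212 and by -4.10 for miR-132. miR-212 ranked first of 3115 tags by p, without passing the adjusted threshold (adjusted p = 0.106), and miR-132 had an adjusted p of 0.243. The F-test of edgeR called 0 tags (0%) and 198 had an unadjusted p under 0.05. The likelihood ratio test called 18 tags (0.578%) and DESeq2 25 (0.806%), and miR-132 and miR-212 were among both. These fits hold the listed reads that chose the members. For the reads outside the list the F-test gave -3.96 for miR-212 (adjusted p = 0.221) and -4.45 for miR-132 (0.434), so neither passed.

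The relation of the members within a library is given with no test, since it rests on the listed reads. Of the reads of the 2 listed miR-212 forms, the longer made up 53.3 ± 14.7% (SD) on PD12, 17.8 ± 18.5% on PD16 and 37.6 ± 18.2% on PD20, and 16.1 ± 11.8%, 41.0 ± 38.4% and 31.9 ± 8.19% on CD12, CD16 and CD20. Some of these shares rest on very few reads, down to 1 in replicate 4 of CD12 and replicate 5 of CD16. Median log2 ratios of miR-132 to miR-212 reads ran from -1.44 on CD20 to -0.42 on PD16. On CD12 the ratio was -4.86 in replicate 2, which had 0 reads of miR-132, and between -1.14 and -0.36 in the other libraries. Over the 30 libraries the levels of both miRNAs correlated with r = 0.776 (Pearson) and 0.767 (Spearman). After group means were taken out, these were 0.336 and 0.418. The 2 values of a library share its depth, and no p is given.

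Other miRNAs were set beside them by the likeness of log2 CPM over the 30 libraries, among tags with a mean of at least 10 CPM. The tags most like miR-212 were miR-17-5p (Pearson r = 0.742), miR-155 (0.736), miR-126 (0.714), miR-20a (0.670) and 1 unnamed tag (0.645), against a median of -0.00276 over the 784 compared. For miR-132 they were miR-212, miR-126 (0.721), a tag of miR-126 shifted by 1 base (0.629), miR-142 (0.611) and miR-17-5p (0.605), with a median of 0.0135 over 785. miR-20a, of the same cluster as miR-17, had 1540 CPM on CD20, 419 on CD12 and 655 on PD20.

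Among 10 miRNAs known to respond to gonadotropins, cAMP or immune stimuli, 8 were matched by name in the list (miR-146a and miR-146b by the same tag) and none passed the test, in the cycle, on CD20 vs. CD12, on PD12 vs. CD12 or on PD20 vs. CD20. As 0.128%, 0.0321%, 0% and 0.449% of all tags were called there, nothing is read from that count. Their median log2FC from CD12 to CD20 was 0.711, that of all tags 0.034. miR-21, which granulosa cells raise together with miR-132 and miR-212 after luteinizing hormone, stood at 376000 ± 130000 CPM (SD) on CD12 and 289000 ± 112000 on CD20 (log2FC -0.38 ± 0.37, SE). miR-155, of activated leukocytes, stood at 8.03 ± 2.21 CPM on CD12 and 28.4 ± 15 on CD20 (1.83 ± 0.49, adjusted p = 0.439). miR-146a, induced by inflammatory signals, had a log2FC of 0.81 ± 0.49.

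Markers of cell types were read from the same libraries. miR-126, the endothelial marker, had 1796 ± 689 CPM on CD12, 2357 ± 447 on CD16 and 3525 ± 411 on CD20, with no overlap between CD12 and CD20 (as for 1.89% of tags) and a log2FC of 0.97 ± 0.33 that did not pass the test (adjusted p = 0.604). PD12, PD16 and PD20 had 2426, 2493 and 3066 CPM. It therefore moved with miR-132 and miR-212 over the cycle, by a smaller factor, and its part in the result was not tested. Of 5 leukocyte miRNAs 4 were matched and none passed. Their median log2FC from CD12 to CD20 was 1.15, while their sum, led by miR-342, was 233 ± 111 CPM on CD12 and 217 ± 84.1 on CD20. miR-142, the marker shared by blood cells, had 15.7 ± 14.3 CPM on CD12, 23 ± 13.9 on CD16 and 39.4 ± 14.5 on CD20. miR-342 went the other way, with 187 ± 118, 128 ± 92.6 and 106 ± 49.6 CPM on these days. From CD12 to CD20 the log2FC was -0.82 for miR-342, and 1.34, 0.96 and 1.83 for miR-142, miR-150 and miR-155. The part of leukocytes was not tested either.

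Of 5 neuronal miRNAs only miR-9 and miR-128 were matched. Their sum, mostly miR-9, was 1713 ± 849 CPM on CD12 and 1336 ± 559 on CD20. The 7 epithelial miRNAs, led by miR-200b, summed to 8625 ± 1291 CPM on CD12, 13190 ± 2908 on CD16 and 8370 ± 2914 on CD20. Their sum was 12470 ± 1771 CPM on PD12, 13120 ± 1310 on PD16 and 12660 ± 2450 on PD20. All PD12 libraries (from 10620) lay above those of CD12 (up to 10080), as was so for 1.35% of single tags, so the sum moved with both miRNAs on D12. The median log2FC of the members on D12 was 0.332, with miR-141 (-0.06) and miR-429 (-0.47) below 0 and the others above 0. On D20 the mean of the sum was higher in pregnancy, with overlap, where both miRNAs were lower. The median log2FC of the members from CD20 to PD20 was however -0.256. It was below 0 for miR-200a, miR-141, miR-429 and miR-205, the direction of both miRNAs, and above 0 for miR-200b, miR-200c and miR-203. The part of the epithelial miRNAs in these differences was not tested. The 3 erythroid ones, led by miR-451, summed to 808 ± 313 CPM on CD12, 1029 ± 549 on CD20 and 2158 ± 1206 on PD20. Of the 5 stromal and smooth muscle miRNAs, the sum, led by miR-143, was 126500 ± 26760 CPM on CD12 and 101900 ± 20740 on CD20. Their median log2FC from CD12 to CD20 was nonetheless 0.487, that of all tags 0.034. It was below 0 for miR-143 (-0.34) and above 0 for miR-145 (0.52), miR-199a (0.49), miR-199b (0.21) and miR-214 (0.74). Their part in the result was not tested. The sum reached 625900 CPM in replicate 1 of PD20, where the other PD20 libraries held 71000 to 127400. The same library had 11 CPM of miR-212 and 2.54 of miR-132, within the range of its group for miR-212 and at its lower end for miR-132. None of these lists had a member called on CD20 vs. CD12, where 0.0321% of tags were called. On PD20 vs. CD20, where 0.449% were, 1 member matched by name was called, the epithelial miR-205 (log2FC -2.97 ± 0.49, adjusted p = 0.0178). Skeletal muscle miRNAs (2 of 4 matched) were nearly all miR-1, and each of several groups had 1 high library. Their sum was 4428 CPM in replicate 3 of CD12 against 1395 to 1463 in the others, 8102 in replicate 4 of CD20 against 1106 to 1967, and 41130 in replicate 1 of PD20 against 1555 to 7019.

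Of 5 embryonic miRNAs none was matched by name, but 17 listed sequences carry only gene identifiers, and by the sequence of the assay used in the study 1 of them is miR-302, a miRNA of pluripotent cells. It was looked up in this way after the values were seen. It had 12, 7, 15, 163, 64 and 179 reads on PD20, 2, 0, 0, 0 and 1 on CD20, and 2 in all other groups together. Every PD20 library thus held more of it than any other library, and 1.48% of tags were higher in PD20 than in CD20 without overlap. From CD20 to PD20 its log2FC was 6.45 ± 1.11 (SE, adjusted p = 0.0210, with 0.449% of tags called). The pooled ratio was 88.9, with an exact interval from 30.2 to 433 that covers counting error only and not the spread between animals. This embryonic marker, in a group whose embryos and trophoblasts were dissected away, moved opposite to miR-132 and miR-212 in PD20 vs. CD20, and its part in that difference was not tested.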

How the data were processed

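The authors deposited, for each of 30 libraries (1 per animal), raw counts of reads per distinct sequence. By their description 2 runs were joined, reads with low quality bases were dropped, adapters removed, and reads under 17 nt or with unknown bases discarded. Counts were neither aligned nor normalized. The list of sequences is that of the study, and only its sequences and names were used. Lengths and ends of reads depend on ligation and trimming, and reads are not molecules, so the ratio of miR-132 to miR-212 reads is set beside the same ratio in other groups and is no ratio of molecules.

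The members and lists were chosen with earlier results of these data known. All reads were summed by their first 17 bases (tags) and kept at a mean of at least 1 CPM over the 30 libraries, whatever the group, which left 3115 tags, or 3104 when listed sequences were taken out. Library size was all deposited reads, scaled by TMM. edgeR 4.0.16 in R 4.3.3 was fitted with 1 mean per group and tested with the quasi-likelihood F-test, prior count 0.125. Within pregnancy and within the cycle both later days were set against D12 in a joint test, P vs C was tested on each day alone, and the interaction of status and day in all libraries. Calls needed a p under 0.05 after Benjamini-Hochberg adjustment over all tags, with an absolute log2FC over 1. SE is the log2FC divided by the root of F. Intervals of log2FC are 1.96 SE on either side, which is narrower than the F-test would give with few animals. Listed sequences were fitted in the same way on the list alone. For the log2 ratio 0.5 reads were added to each count. Alternatives were the likelihood ratio test, DESeq2 1.42.0, other scalings and filters, 1 fit of all libraries, the replicate block and each library left out. Named are the members, their frequent forms, the 5 tags most like each, and lists of pathway and cell type miRNAs matched by name, each by its most abundant listed tag, and miR-302 by the sequence of its assay, a step added after seeing the data. The labels do not say which libraries were pooled for sequencing, so that batch was not tested. No hairpin sequences were used here, so reads of the other arm were not assigned.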

Additional observations from a re-analysis of the deposited data

Results flagged for a closer look

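The 3 listed sequences and the sums of both miRNAs were examined in each group of libraries, and in 3 of these 30 cases a library lay far from the others. Chance gives about 1 in 20 for a single case, but the sums hold the listed reads and the cases share libraries, so they are not separate. miR-212 summed over all forms stood at 64.7 CPM in replicate 2 of CD20, the next library of that group being at 30.4. The 22 nt form of miR-212 stood at 6.66 CPM in replicate 5 of PD16, the next being at 1.14. The same form stood at 9.46 CPM in replicate 2 of PD20, with 4.15 in the next.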

How the results depend on the processing

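The direction of miR-132 and miR-212 was the same in all 332 values from alternative settings, and 291 of these fell on the same side of the threshold. These values cover their summed reads, their listed reads and their reads outside the list. Many come from fits of the same libraries with 1 left out, so they are not separate. Among listed sequences, the log2FC of miR-132 from PD12 to PD20 was only 0.0064. What changed was the call, and the cause was not tested. Over the cycle, miR-132 summed over all reads was called by the likelihood ratio test (log2FC 4.54) and DESeq2 (4.59). These called 25 of 3115 and 21 of 3101 tags. miR-132 was also called without TMM (4.63), without the CPM filter (4.52) and in 1 fit of all libraries (4.52). It was not called with RLE (4.47), the replicate block (4.72), the single contrast (4.52) or any of 14 libraries left out. These sums hold the listed reads that chose the members. In fits of other reads, miR-132 was called among listed sequences only (3.87, on the reads that chose the members) and among reads outside the list (5.52). miR-212 on PD20 vs. CD20 was called by DESeq2 (-1.37). In the interaction the likelihood ratio test and DESeq2 called miR-132 (-4.13 and -4.18) and miR-212 (-3.56 and -3.51), and miR-212 was also called without TMM (-3.86), at a mean of at least 10 CPM (-3.52) and among listed sequences (-2.93, again on the reads that chose them). With 1 library left out, miR-212 ranged from 3.79 to 4.51 over the cycle and from -3.81 to -3.16 in the interaction, called without CD16 replicate 1 or 5. Outside the list, miR-212 ranged from 3.9 to 5.32 and miR-132 from 5.08 to 6.98.

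Tags called over the cycle were 4, against 25 with the likelihood ratio test, 21 with DESeq2, 1 with RLE, 7 without TMM, 1 at 10 CPM, 39 without the filter, 15 in 1 fit, 9 among listed sequences, 1 in the single contrast and 0 to 3 with 1 library left out. During pregnancy they were 18, against 64, 59, 10 (no TMM), 6 (10 CPM), 114 (no filter), 39 (1 fit), 1 (listed), 8 (single contrast) and 5 to 22. On PD20 vs. CD20 they were 14, against 51, 66, 6 (10 CPM), 91 (no filter), 36 (1 fit), 28 (listed) and 1 to 18. From 0 they went to 4, 1 and 57 (no filter) on PD12 vs. CD12, to 23 (no filter) on PD16 vs. CD16, and to 18, 25, 1 (no TMM), 2 (10 CPM), 5 (listed) and 0 to 1 in the interaction. Outside the list, the 4 tags over the cycle became 24, 18 and 0 to 5. These fits outside the list were chosen after seeing the data. Without TMM the log2FC of the listed sequences moved by at most 0.40 and none of 27 changed sign.

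With the replicate block the tags called fell to 1 over the cycle, 3 during pregnancy and 8 on PD20 vs. CD20. miR-212 over the cycle was still called (log2FC 4.44), and outside the list neither was (4.71 for miR-212, adjusted p = 0.0742, and 5.73 for miR-132, 0.0993, with 0 tags called). The labels do not say that animals with 1 number share anything. Of 70 pairs of libraries with 1 number, 37 correlated over 0.1, with a median r of 0.136 against -0.0541 for other pairs, and 12 of 30 libraries correlated best with 1 of their own number, a hint from the data and not the design. Few reads were a limit, since those outside the list numbered 1 for miR-132 and 10 for miR-212 on CD12.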
